A study of Homo sapiens with 9 samples.

Results

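The EGF receptor family and its ligands were followed in HK-2, an immortalised line of human proximal tubule epithelial cells, before and during exposure to transforming growth factor β1 (TGFβ1). The 8 members were taken by gene symbol: the ligand genes HBEGF, TGFA, AREG, EREG and BTC and the receptor genes EGFR, ERBB2 and ERBB3. Of these, 7 had a probe set named on the array, out of 11963 named genes, and 4 passed the filter for testing (HBEGF, TGFA, EREG and EGFR), out of 4368 genes. BTC, ERBB2 and ERBB3 were below the filter, which kept genes that reached 4 on the log2 scale on 3 or more arrays. Only probe sets with a single gene symbol were used. None of these carried the symbol AREG in the annotation used, and AREG was not analysed here.

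The ligands of this family are made as membrane-anchored precursors and are released by cell surface proteases. They bind EGFR or a related receptor, the receptors pair and phosphorylate each other, and the signal passes to the Ras-ERK, PI3K and STAT routes. In the proximal tubule EGFR signalling is known for its part in repair after injury and, when it is sustained, in fibrosis.

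The 9 arrays fell into 3 groups of 3: untreated cells at 0 h, cells after 24 h of TGFβ1 and cells after 48 h of TGFβ1. Each array held the pooled plates of 1 time point from 1 run, and the 3 runs used consecutive passages of the same line. Per the labels, the medium in which the line was maintained contained 10 ng/ml EGF as well as hydrocortisone, triiodothyronine and insulin, transferrin and selenium. This supplied an EGFR ligand from outside before the experiment in all groups. Whether EGF was present during the exposure, and the dose of TGFβ1, are not given in the sources used here. Untreated cultures kept for 24 or 48 h were not analysed here, so TGFβ1 and time in culture cannot be told apart. The p-values measure the spread between runs of 1 line. Where the run is a block in the fit, level differences between runs are removed first. The p-values then measure how far the differences within runs vary from run to run.

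Array medians lay between 2.2 and 2.23 on the log2 scale, and values near them cannot be told from background. Among 10 kidney epithelial markers on the array, PAX8, KRT8, KRT18 and EPCAM were above the filter. The proximal tubule markers LRP2, CUBN, ANPEP and AQP1 and the kidney markers CDH16 and PAX2 had group means of 1.27 to 1.91. They were near background in every group, so the arrays do not show these markers. The summed log2 level of the 10 epithelial markers was 41.5 to 42.2 in untreated cells, 40.2 to 41.3 at 24 h and 40.2 to 40.8 at 48 h. Within that sum the 4 tested markers moved differently. EPCAM, an epithelial adhesion protein, fell, with differences of −1.27 at 24 h and −1.17 at 48 h (adjusted p = 0.00116 and 0.00172; lost without run 1, 0.0544 and 0.0810). PAX8, a kidney transcription factor, fell, with −0.60 and −0.81 (adjusted p = 0.0233 and 0.00496). The PAX8 calls were lost without any 1 run (0.142 to 0.230 at 24 h and 0.0642 to 0.136 at 48 h), and at 24 h also without the untreated array of run 1 or 2 or any 1 of the 24 h arrays (0.0502 to 0.0897). The keratin KRT8 differed by 0.65 at 24 h and on all 9 arrays passed only with the block (adjusted p = 0.0123, against 0.0640 without it). That call was lost without any 1 run (0.0590 to 0.0939). Without the block, leaving out 1 array gave adjusted p-values from 0.0351 to 0.222. At 48 h KRT8 differed by 0.46 and did not pass in either fit (adjusted p = 0.222, and 0.0546 with the block). The keratin KRT18 differed by 0.14 at 24 h and −0.28 at 48 h and did not pass in either fit (adjusted p = 0.803 and 0.674).

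Of 7 fibroblast markers only LUM passed the filter, and of 6 endothelial and 6 leukocyte markers 0 passed. The fibroblast sums ranged from 17.5 to 19.5 in untreated cells, 18.4 to 20.9 at 24 h and 18.9 to 19.9 at 48 h. Below the filter, COL1A1, a collagen of the same list, had log2 values of 2.18, 1.51 and 1.49 in untreated cells. It had 2.98, 3.07 and 3.18 at 24 h and 3.14, 2.23 and 3.15 at 48 h. Its treated arrays were thus above the untreated ones, without a test. The other markers of the list did not all move with it. LUM differed by −0.37 at 24 h and 0.33 at 48 h and did not pass in either fit. Group means at 0, 24 and 48 h were 1.68, 1.37 and 1.44 for COL3A1 and 3.03, 2.85 and 2.66 for THY1. PDGFRA had 1.59, 1.65 and 1.51 and PDGFRB 1.81, 1.81 and 1.71. DCN had higher means at 24 and 48 h, with arrays that overlapped the untreated ones. In the order of the times the endothelial sums lay at 8.90 to 9.63, 9.05 to 10.1 and 8.90 to 9.31, and the leukocyte sums at 8.42 to 8.91, 8.35 to 8.80 and 7.94 to 8.57. The part of these shifts in the results was not tested.

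After 24 h of TGFβ1 the ligand genes moved in opposite directions. HBEGF, which encodes heparin-binding EGF-like growth factor, rose 2.24-fold, and TGFA, which encodes transforming growth factor α, fell 2.86-fold. EREG, which encodes epiregulin, was 2.46-fold lower and missed the threshold in the fit without runs, and passed it with the run as a block. EGFR, the receptor that all of these ligands share, differed by −0.06 on the log2 scale, with a 95% interval from −0.39 to 0.27. Of the 4 members tested, 1 rose and 1 fell, where 2.63% of all genes tested rose and 2.17% fell (4.81% in either direction; limma, Benjamini-Hochberg adjusted p under 0.05). With the run as a block, 1 rose and 2 fell, where 5.95% of all genes rose and 5.52% fell. In pooled cultures, fewer cells that express a gene and less RNA per cell cannot be told apart.

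The sequence before the start of the 3 ligand genes is shown because these are the members that moved or came closest to the threshold. The 250 bases upstream of the first listed start were taken from RefSeq (GRCh38.p14), 5′ to 3′ on the gene's strand. Capitals mark CAGAC, the core of a SMAD-binding element, searched on both strands (GTCTG is its reverse complement), and TATAAA, the TATA box, searched on the gene's strand. TGANTCA, the AP-1 site, was searched on both strands and is in none of the 3 windows.
HBEGF chr5:140346604-140346853 (minus strand): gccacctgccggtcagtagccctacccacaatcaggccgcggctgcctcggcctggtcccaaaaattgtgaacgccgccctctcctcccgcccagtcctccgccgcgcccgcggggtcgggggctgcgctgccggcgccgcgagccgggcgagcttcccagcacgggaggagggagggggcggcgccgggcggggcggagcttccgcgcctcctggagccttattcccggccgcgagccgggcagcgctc
TGFA chr2:70553827-70554076 (minus strand): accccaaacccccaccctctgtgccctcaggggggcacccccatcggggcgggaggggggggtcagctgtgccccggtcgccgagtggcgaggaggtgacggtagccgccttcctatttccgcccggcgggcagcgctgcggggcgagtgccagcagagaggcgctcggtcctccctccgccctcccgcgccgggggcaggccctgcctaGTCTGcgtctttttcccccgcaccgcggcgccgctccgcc
EREG chr4:74364895-74365144 (plus strand): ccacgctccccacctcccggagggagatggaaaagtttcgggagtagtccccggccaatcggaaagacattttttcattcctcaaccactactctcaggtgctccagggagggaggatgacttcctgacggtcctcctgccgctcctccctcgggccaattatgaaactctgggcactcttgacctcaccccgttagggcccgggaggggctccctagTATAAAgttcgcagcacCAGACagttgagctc
The HBEGF window held none of these motifs and had 76.4% G and C. The TGFA window held GTCTG 40 bases before the start, and a second listed TGFA start, at chr2:70553447-70553696, held no motif. The EREG window held TATAAA 32 bases and CAGAC 15 bases before the start and had 58% G and C. CAGAC in either orientation was in 38% of 35116 such windows, TGANTCA in 6.57% and TATAAA in 6.8%, so the SMAD-type letters are common and are given as a description only.

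HBEGF binds both EGFR and heparan sulfate chains. Its log2 values in runs 1, 2 and 3, the order kept for every gene, were 4.50, 5.20 and 4.20 in untreated cells, 5.65, 5.68 and 6.07 at 24 h and 5.67, 5.51 and 5.51 at 48 h. Every treated array was above every untreated array, as was so for 8.68% of all genes at 24 h and 9.75% at 48 h. The difference at 24 h was 1.16 ± 0.24 (SE, adjusted p = 0.0264; 0.0166 with the run as a block). At 48 h it was 0.93 (1.91-fold, adjusted p = 0.0653), which passed only with the block (adjusted p = 0.0448). Within runs 1, 2 and 3 the 24 h differences were 1.15, 0.48 and 1.87 and the 48 h differences were 1.17, 0.31 and 1.32. Run 2 had the smallest difference at both times, and its untreated array had the highest untreated value.

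The call of HBEGF at 24 h was lost without the untreated array of run 1 (adjusted p = 0.105) or of run 3 (0.0665), without the 24 h array of run 2 (0.0572) or of run 3 (0.106), and without the 48 h array of run 1 (0.0507). It was also lost without run 1 (0.257) or run 3 (0.303), and with the block without run 1 (0.0881) or run 3 (0.131). Over all leave-outs, those that kept the call included, the log2 difference ranged from 0.81 to 1.51. At 48 h HBEGF passed without the untreated array of run 2 (adjusted p = 0.00865) and without run 2 (0.0355), and the 48 h call with the block was lost without run 1 (0.283) or run 3 (0.136).

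TGFA encodes a ligand that binds EGFR alone. Its log2 values in runs 1, 2 and 3 were 8.86, 8.73 and 9.22 in untreated cells, 7.20, 7.13 and 7.92 at 24 h and 8.22, 7.61 and 8.59 at 48 h. All treated arrays were below all untreated arrays, as was so for 7.72% of genes at 24 h and 8.31% at 48 h. The 24 h difference was −1.52 ± 0.29 (SE, adjusted p = 0.0173; 0.000394 with the block), which placed TGFA 31st from the lowest among the 4368 genes. The 48 h difference was −0.79 (1.73-fold lower, adjusted p = 0.220), and it passed with the block (adjusted p = 0.0092).

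Run 3 had the highest TGFA value at each time, and the differences within runs were closer to each other than for HBEGF. They were −1.66, −1.60 and −1.30 at 24 h and −0.64, −1.12 and −0.63 at 48 h in runs 1, 2 and 3. The 24 h call was lost without the untreated array of run 1 (adjusted p = 0.0606) or run 3 (0.0615), without the 24 h array of run 1 (0.0541) or run 2 (0.0604), and without run 1 (0.252). Over all leave-outs, those that kept the call included, the difference ranged from −1.77 to −1.37. With the block the call held when any run was left out, at adjusted p-values from 0.00464 to 0.0110. The 48 h call with the block was lost without run 2 (adjusted p = 0.104) or run 3 (0.0513), and it was just past the threshold without run 1 (0.0491).

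EREG encodes a ligand of EGFR and ERBB4. Its log2 values in runs 1, 2 and 3 were 8.07, 7.06 and 8.13 in untreated cells, 6.68, 6.82 and 5.85 at 24 h and 7.08, 6.58 and 6.70 at 48 h. At 24 h all treated arrays were below all untreated ones, as was so for 7.72% of all genes. At 48 h the array of run 1 stood just above the untreated array of run 2. The difference was −1.30 ± 0.33 at 24 h (SE, adjusted p = 0.0620; 0.0301 with the block) and −0.96 at 48 h (adjusted p = 0.199; 0.0988 with the block). Within runs 1, 2 and 3 it was −1.39, −0.24 and −2.27 at 24 h and −0.99, −0.47 and −1.42 at 48 h.

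Run 2 had the smallest EREG difference, as it did for HBEGF, and its untreated array was the lowest of the untreated arrays for EREG. Without that array EREG passed at 24 h (−1.65, adjusted p = 0.0158) and at 48 h (−1.31, adjusted p = 0.0443). Without run 2 it passed at 24 h (−1.83, adjusted p = 0.0239), and with the block also at 48 h (0.0278). With the block the 24 h call was lost without run 1 (adjusted p = 0.147) or run 3 (0.190). Over the 210 genes called at 24 h, the median difference in the called direction was 1.15, 1.17 and 1.32 in runs 1, 2 and 3. These genes were called on the same arrays, which favours genes with differences alike between runs. Whether run 2 responded less in general was not tested.

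**Figure D1:**
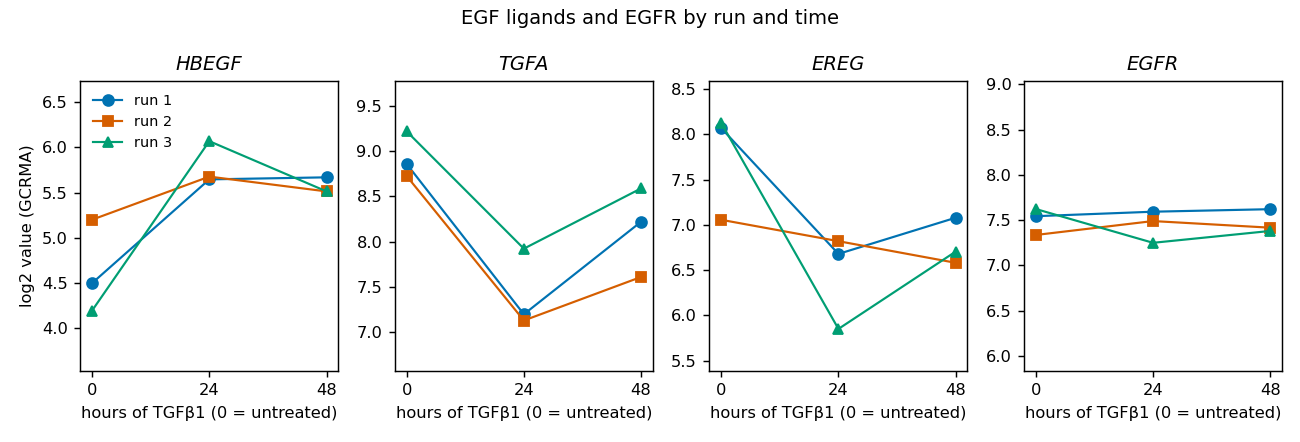
Log2 GCRMA values (vertical axis) of HBEGF, TGFA, EREG and EGFR at 0, 24 and 48 h of TGFβ1 (horizontal axis), with 1 line per run and panels of equal height on the log2 scale. HBEGF lies above its untreated values in every run and TGFA below them, EREG differs by only −0.24 in run 2 at 24 h, and EGFR stays between 7.25 and 7.62.

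EGFR encodes the receptor of all 3 ligands and of the EGF in the medium. Its log2 values in runs 1, 2 and 3 were 7.54, 7.34 and 7.62 in untreated cells, 7.59, 7.49 and 7.25 at 24 h and 7.62, 7.42 and 7.38 at 48 h. The 3 groups overlapped throughout. The difference was −0.06 ± 0.15 at 24 h (SE, adjusted p = 0.902) and −0.03 at 48 h (95% interval −0.36 to 0.30, adjusted p = 0.987), so a change of more than 0.39 in either direction lay outside both intervals. Within runs it was 0.05, 0.15 and −0.37 at 24 h, with run 3 alone below 0. A second EGFR probe set above the filter differed by 0.22 at 24 h (adjusted p = 0.847) and 0.36 at 48 h (adjusted p = 0.805, adjusted over every probe set), and its untreated array of run 2 was low at 4.33.

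The other receptors were below the filter. ERBB2, which encodes the receptor with no known ligand of its own, had log2 values of 3.12, 3.46 and 3.63 in untreated cells, 3.37, 3.37 and 3.52 at 24 h and 3.07, 3.21 and 3.49 at 48 h, and all groups overlapped. The brighter probe set of ERBB3, which encodes a receptor with little kinase activity, ranged from 1.16 to 1.48 in untreated cells, 1.36 to 1.76 at 24 h and 1.36 to 1.71 at 48 h. The ligand gene BTC, which encodes betacellulin, ranged from 1.28 to 1.85 in untreated cells, 0.88 to 1.91 at 24 h and 1.40 to 1.51 at 48 h. Values this low give no measure of a difference.

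Of the other ligand and receptor genes, NRG1 passed the filter, while EGF, NRG2 and ERBB4 were near background. NRG1 encodes neuregulin 1, a ligand of ERBB3 and ERBB4. Its log2 values were 6.83, 7.50 and 5.21 in untreated cells, 6.96, 7.45 and 6.97 at 24 h and 6.56, 7.01 and 6.30 at 48 h. The untreated array of run 3 stood far below the others, and the difference of 0.61 ± 0.49 at 24 h did not pass (SE, adjusted p = 0.594). It was −0.038 without that array.

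**Figure D2:**
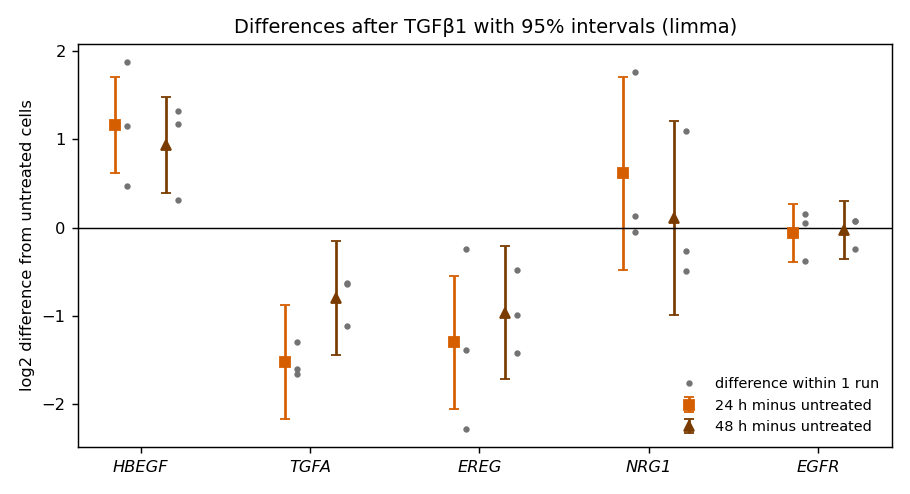
Log2 differences from untreated cells (vertical axis) at 24 h (squares) and 48 h (triangles) with 95% limma intervals, beside the differences within each of the 3 runs (dots), for the 5 ligand and receptor genes tested (horizontal axis). The 24 h intervals of HBEGF (0.62 to 1.71) and TGFA (−2.16 to −0.87) lie on opposite sides of 0, and those of NRG1 and EGFR cross 0.

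No member passed the test of 48 h against 24 h. TGFA was higher at 48 h than at 24 h by 0.72 (95% interval 0.08 to 1.37, unadjusted p = 0.0320, adjusted p = 0.781; 0.165 with the block). The difference was 1.02, 0.48 and 0.67 in runs 1, 2 and 3, and 21.1% of all genes were likewise higher at 48 h in every run. HBEGF differed by −0.23 (adjusted p = 0.818) and EREG by 0.34 (adjusted p = 0.814), each with runs on both sides of 0. Across all genes limma called 0% of 4368 between 48 and 24 h, with 219 at an unadjusted p under 0.05, and 0 with the block, with 709. Over the 3 times together, an F test called HBEGF (adjusted p = 0.0477) and TGFA (adjusted p = 0.0410), against 4.12% of all genes.

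At 48 h against untreated cells, 0 of the 4 members rose and 0 fell in the fit without runs, where 2.27% of all genes rose and 2.17% fell (4.44% in either direction), and 3 members had an unadjusted p under 0.05. With the block HBEGF rose and TGFA fell, where 5.22% of genes rose and 4.81% fell.

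The other probe sets of the ligands were dim. A second HBEGF set had log2 values of 2.37, 2.73 and 2.13 in untreated cells, 3.29, 3.32 and 3.35 at 24 h and 2.86, 2.67 and 2.72 at 48 h, so its 24 h arrays were above the untreated ones and its 48 h arrays overlapped them. The third HBEGF set was near background and differed by −0.21 at 24 h and −0.35 at 48 h, with the opposite sign. The dimmer TGFA sets differed by −0.21 and −0.62 at 24 h and by −0.23 and −0.32 at 48 h, with the same sign as the bright set. None of these sets passed the filter, and they carry no test.

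**Figure D3:**
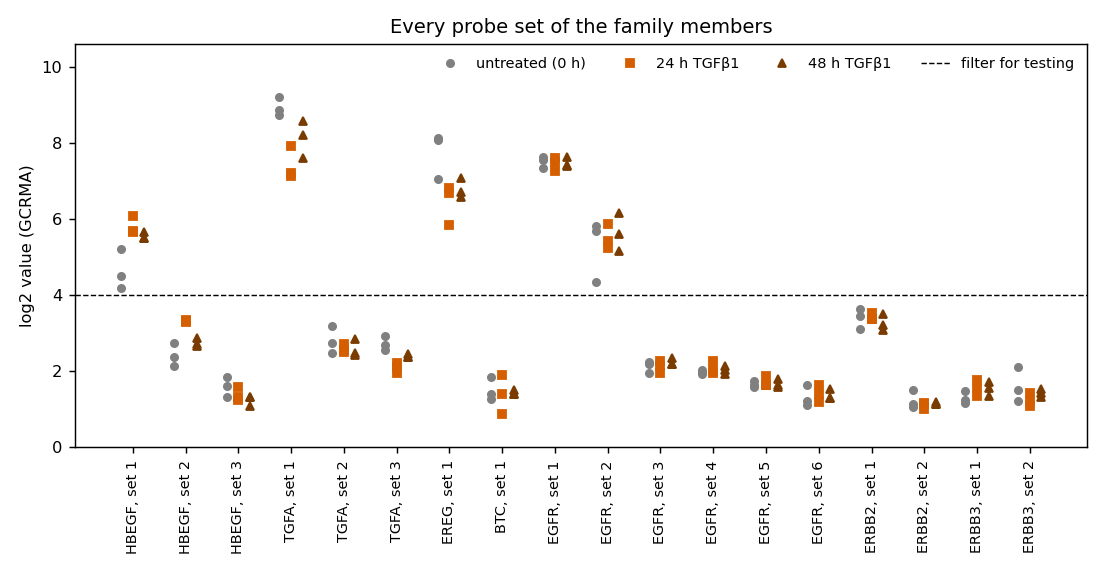
Log2 GCRMA values (vertical axis) on all 9 arrays for each probe set of the 7 members on the array (horizontal axis, brightest first within a gene), with the filter for testing at 4. HBEGF, TGFA and EREG each have 1 probe set above the filter and EGFR has 2.

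The transcripts of sheddases and of partners of the HBEGF precursor formed 2 further lists. Of 14 sheddases and their regulators on the array, 4 were tested, with a median difference of −0.25 at both times (0.015 and 0.023 over all genes). At each time 1 was called higher and 0 lower, where 2.63% and 2.17% of all genes were at 24 h and 2.27% and 2.17% at 48 h. The 1 gene was ADAM19, which encodes a membrane metalloprotease. Its log2 values were 3.56, 3.72 and 3.01 in untreated cells, 5.25, 4.66 and 5.40 at 24 h and 5.07, 4.70 and 4.80 at 48 h. All treated arrays were above all untreated ones, as was so for 8.68% of all genes at 24 h and 9.75% at 48 h, and the differences were 1.67 and 1.43. Every untreated value was below the filter, so ADAM19 was tested only because its treated arrays were high; its values are a description, and its call is no support for a change of the list. ADAM17 and ADAM10, which encode the main sheddases of these ligands, differed by −0.54 and −0.47 at 24 h and did not pass at either time.

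Of 14 partners of the HBEGF precursor and heparan sulfate carriers, 11 were tested and none rose, while 1 fell at 24 h and 2 at 48 h, where 2.17% of all genes fell at each time. With the block 0 rose and 3 fell at 24 h, where 5.95% and 5.52% of all genes did, and 1 rose and 3 fell at 48 h, where 5.22% and 4.81% did. The list's median difference was −0.03 at 24 h and 0.03 at 48 h. CD9, a tetraspanin that binds the HBEGF precursor at the cell surface, had log2 values of 7.21, 7.60 and 7.46 in untreated cells, 4.31, 4.86 and 4.19 at 24 h and 3.97, 4.22 and 4.10 at 48 h. It thus fell, with differences of −2.97 at 24 h and −3.33 at 48 h (adjusted p = 8.02e-05 and 5.42e-05), while HBEGF itself was higher on every treated array. SDC4, which encodes a heparan sulfate carrier, fell by 0.85 at 48 h (adjusted p = 0.0336), a call lost without any 1 of the 3 untreated arrays or without the 48 h array of run 1 or run 3 (adjusted p from 0.0581 to 0.138), and without any 1 run (0.139 to 0.252). ITGA3, the integrin α3 subunit, differed by −0.80 and −0.81 and passed only with the block (adjusted p = 0.00561 and 0.00546), as did SDC4 at 24 h (−0.46, adjusted p = 0.0464) and ITGB1, the integrin β1 subunit, at 48 h (0.55, adjusted p = 0.0366). Each of these calls was lost when a run was left out, with adjusted p of up to 0.0628 and 0.0895 for ITGA3 (without run 1 or 3), 0.204 for SDC4 (any run) and 0.220 for ITGB1 (run 1 or 2).

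In the lists downstream of the receptors the counts are set against 4.81% of all genes called at 24 h and 4.44% at 48 h, a share at which few or no calls arise in lists of this size. Of 8 tested genes of the adaptors and the Ras-ERK cascade, 0 passed at either time (0 and 1 at an unadjusted p under 0.05), and their medians were 0.20 at 24 h and 0.06 at 48 h. With the block RPS6KA3, which encodes a kinase activated by ERK, rose at 48 h (0.84, adjusted p = 0.0234; 0.0934 without it). Of 6 tested genes of the PI3K, PLC, SRC and STAT branches, 0 passed (1 and 1 at an unadjusted p under 0.05), with medians of −0.26 and −0.07. With the block STAT3, a transcription factor activated by cytokine and growth factor receptors, fell at 48 h (−0.69, adjusted p = 0.0308; 0.0525 without it). These 2 calls with the block stand against 5.22% of all genes called higher and 4.81% called lower with the block at 48 h. The RPS6KA3 call was lost without run 1 (adjusted p = 0.0944) or run 2 (0.189). That of STAT3 was lost without run 2 (0.163) or run 3 (0.175). Of 7 tested receptor inhibitors and endocytic regulators, 0 passed in either fit (1 and 0 at an unadjusted p under 0.05), with medians of −0.02 and 0.09.

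Among 11 tested genes known as outputs of ERK signalling, 1 rose and 2 fell at 24 h, where 2.63% and 2.17% of all genes did, and 0 rose and 3 fell at 48 h, where 2.27% and 2.17% did. The list's medians were −0.07 and 0.10. The genes that fell most encode phosphatases that act on ERK. DUSP6 had log2 values of 7.45, 7.48 and 7.61 in untreated cells, 5.76, 5.05 and 5.95 at 24 h and 5.69, 5.41 and 5.97 at 48 h. DUSP5 had 6.20, 6.46 and 5.85 in untreated cells, 4.20, 4.47 and 4.47 at 24 h and 4.10, 3.39 and 3.87 at 48 h. For both genes all treated arrays were below all untreated ones, as was so for 7.72% of all genes at 24 h and 8.31% at 48 h.

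DUSP6 differed by −1.93 at 24 h (adjusted p = 0.00156) and −1.83 at 48 h (adjusted p = 0.00223), and DUSP5 by −1.79 (adjusted p = 0.00143) and −2.38 (adjusted p = 0.000338). Without run 1 the calls were lost for DUSP6 at both times (adjusted p = 0.0848 and 0.127) and for DUSP5 at 24 h (0.0763). FOSL1, which encodes the AP-1 subunit FRA1, fell by 1.09 at 48 h (adjusted p = 0.00918; lost without run 1, 0.214, or run 3, 0.0712). At 24 h FOSL1 differed by −0.69 (adjusted p = 0.0712; 0.0159 with the block, lost without any 1 run, at up to 0.100). IER3, an early response gene, rose by 0.52 at 24 h (adjusted p = 0.0475), a call lost without any 1 of the 9 arrays (adjusted p from 0.0545 to 0.167), and differed by 0.17 at 48 h. The other tested genes of the list did not pass at either time in either fit.

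**Figure D4:**
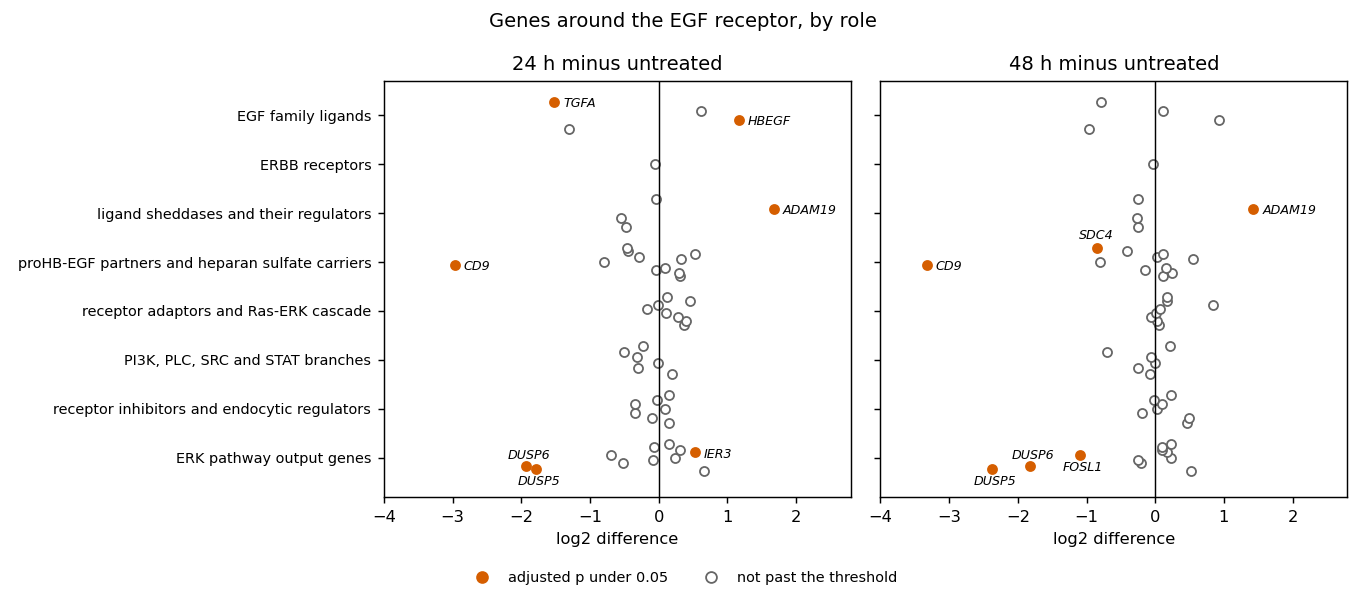
Log2 differences from untreated cells (horizontal axis) at 24 h (left) and 48 h (right) for the tested genes of 8 lists around the receptor (rows), with filled points for genes past the threshold of 0.05 in the fit without runs. CD9 (−2.97 and −3.33), DUSP5 and DUSP6 lie furthest to the left and ADAM19 furthest to the right, while the points of most lists gather around 0.

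The genes whose values over the 9 arrays were most like each member were named by Pearson correlation, as a description across arrays that share runs and time points. For HBEGF they were S100A2 (0.985), CXCL5 (0.966) and INAVA (0.960), and for TGFA PPA2 (0.963), GBE1 (0.961) and ZFAND6 (0.948). For EREG they were ARHGEF12 (0.924), MYLK (0.924) and FAM3C (0.922), and for EGFR CCDC28A (0.891), WNK1 (0.885) and CLINT1 (0.879).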

How the data were processed

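Expression was measured on 9 Affymetrix arrays. The deposited values are on a log2 scale, 1 per probe set, made by the authors with GCRMA per the submitters' processing notes; the sources used here name no GCRMA version. They were used without further normalization. GCRMA compresses differences of dim probe sets, and no detection calls were used. The number of arrays limits the precision.

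Of 22277 probe sets, 19070 had 1 gene symbol, 1043 several and 2164 none, and 62 were controls. Symbols were updated through gene IDs of a RefSeq table (19058 matched). The probe set with the highest mean stood for a gene, and genes reaching 4 (log2) on 3 or more arrays were tested. limma 3.58.1 in R 4.3.3 (lmFit, eBayes) fitted all 9 arrays, with Benjamini-Hochberg adjustment over 4368 genes and a threshold of 0.05. SEs and intervals come from this fit. The script was tested on simulated data.

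The replicate numbers of the titles were taken as runs: deviations from group means had correlations of 0.378 to 0.662 for arrays sharing a number and −0.526 to 0.185 for the others, so the fit with the run as a block is given where it changes a call. The members and lists were chosen with earlier results of these data known. Named genes were the members, the other ligands and receptors, all called genes of each list with at most 6 of them and otherwise 4 per direction, and the 3 genes most correlated with each tested member. ADAM10, ADAM17, COL1A1 and the other fibroblast markers were named beyond this rule, after their values were seen, as were genes called only with the block. Alternatives changed the filter, probe set rule, normalization, variance prior, arrays and block. Python 3.11.15, pandas 2.3.3 and matplotlib 3.10.9 were also used.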

Additional observations from a re-analysis of the deposited data

How the results depend on the processing

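With the run as a replicate block, all genes called numbered 501 at 24 h (210 without it) and 438 at 48 h (194 without it), and members called were 2 lower at 24 h and 1 higher and 1 lower at 48 h. With only the 2 groups compared in the fit, 124 genes were called at 24 h and 0 members higher; HBEGF then had an adjusted p of 0.0861. With the filter at log2 6, or with the mean of all probe sets of a gene, 0 members were called higher at 24 h, since HBEGF no longer passed the filter. With a trend in the variance prior 2 members were called lower at 24 h (EREG, adjusted p = 0.0350). The F test called 0 members with no filter and with the mean of probe sets, and 1 with the filter at 6, with every probe set, after quantile normalization and with a robust prior. Genes called ranged from 105 to 213 at 24 h and 111 to 206 at 48 h when 1 array was left out, from 34 to 129 and 33 to 112 when 1 run was left out, and from 218 to 304 and 190 to 267 when 1 run was left out with the block. Over all of these, members called higher ranged from 0 to 1 and those called lower from 0 to 2 at 24 h, from 0 to 1 in each direction at 48 h, and from 0 to 3 by the F test. HBEGF, TGFA and EREG kept their direction against untreated cells in all alternatives run that tested them; the TGFA difference at 24 h was −0.78 with the mean of all probe sets, which averages it with its dim sets. The differences of EGFR turned sign, from −0.16 to 0.10 at 24 h, −0.11 to 0.079 at 48 h and −0.069 to 0.10 for 48 h minus 24 h, as did those of NRG1, from −0.038 to 1.11 at 24 h and −0.54 to 0.60 at 48 h, and of RPS6KA3 at 24 h, from −0.24 to 0.23. ADAM19 was not among the genes tested with the filter at 6 or with the mean of probe sets. Other causes were not tested. Probe sets near background, those of BTC, ERBB2 and ERBB3 among them, limit what can be said of these members.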
